A study of Ovis aries with 8 samples.

Results

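The spliceosome genes described here are those whose symbols in the deposited count table name an Sm or other SNRP protein, an SF3A or SF3B subunit, a PRPF factor, an LSM2 to LSM8 protein, a U2AF subunit, an SR protein (SRSF) or a heterogeneous nuclear ribonucleoprotein (hnRNP). There were 58 such genes among the 11247 genes of the table, namely 34 genes of the small nuclear ribonucleoproteins (snRNPs), 2 U2AF genes, 8 SR genes and 14 hnRNP genes. All 58 passed the filter on low counts, which kept 9779 genes, and the lowest count of any of them in any library was 46. Genes whose symbols begin with SNRNP fall outside that choice. Further members of these families are not among the symbols of the table and could not be included. Examples are *SNRPE*, *SNRPF*, *LSM3*, *LSM6*, *U2AF1*, *SRSF2*, *SRSF5*, *HNRNPA1* and *HNRNPC*. The SR and hnRNP families are thus partial here too.

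Samples were the rib-eye muscle longissimus thoracis from castrated Dorper × Santa Inês crossbred lambs (Ovis aries). The control diet is written CON, and SM20 is the diet that held 20% soybean molasses, the sugar-rich syrup left from making soy protein concentrate. The trial had 10 lambs per diet, 4 of which were drawn at random per diet for sequencing of poly-A RNA, so each library is a separate lamb. Ages and the rest of either diet are not known from the labels.

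Total counts ran from 8675527 to 11210065 per library. Levels are counts scaled to 1000000 per library after TMM normalization (CPM), differences are log2 fold changes of SM20 over CON with their standard error (SE), and the threshold is an adjusted p of 0.05 over all 9779 genes in the quasi-likelihood test of edgeR. Of the 14 muscle fibre markers, 11 were tested, among them *ACTA1*, skeletal actin, at 45710 ± 11553 CPM under CON and 40160.2 ± 1762 CPM under SM20 (SD, n = 4 per diet). CON lamb 1 stood apart from the other libraries, with the lowest scaling factor (0.885), the highest summed muscle fibre markers (183877 CPM against 112497 to 146904 in the other 7 lambs) and the highest summed slow-fibre markers (26291 CPM against 10931 to 18316). In bulk muscle, fewer cells of a type and less RNA per cell cannot be told apart. Gene lengths were not used, so levels of different genes are not compared.

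The spliceosome removes introns from precursor messenger RNA. Its U1, U2, U4 and U5 snRNPs each carry a ring of Sm proteins around their RNA, whereas U6 carries a ring of LSM proteins. U1 marks the 5′ splice site, U2AF and U2 with its SF3A and SF3B complexes mark the branch point and 3′ splice site, and the U4/U6.U5 tri-snRNP with its PRPF proteins forms the catalytic centre. SR proteins bind exons and mostly favour their inclusion, and hnRNPs coat the transcript and often oppose them. Many SR and hnRNP genes limit their own messages through exons that lead to decay. Skeletal muscle has long been studied for alternative splicing, since many sarcomere genes are spliced in fibre-specific ways. A count per gene shows how much message a factor has and not which isoform was made.

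None of the 58 genes passed the threshold between the diets, where 5 of 9779 genes did (0.0511%). Their log2 fold changes lay between -0.51 (*LSM7*) and 0.44 (*PRPF4B*), and their adjusted p-values by edgeR between 0.134 and 0.9996. The largest fold was 1.42, for *LSM7*. DESeq2 also called 0 of the 58, with a smallest adjusted p of 0.0542, whereas over the whole table it called 446 of the 7101 genes it gave an adjusted p (6.28%). At an unadjusted p under 0.05 by edgeR there were 7 of the 58 genes, 12.1%, below the 18.3% of all genes tested. These were 4 higher in SM20 (*PRPF4B*, *HNRNPDL*, *SF3B1* and *PRPF8*) against 9.84% of all genes, and 3 lower (*SNRPD2*, *LSM7* and *LSM4*) against 8.45%. With other scalings that split of 4 to 3 became 2 to 5 (upper quartile) and 3 to 1 (library size alone). The 4 higher genes became 1 without SM20 lamb 1, and 2 without CON lamb 3, CON lamb 4 or SM20 lamb 3. The diets did not overlap for 7 genes, 12.1%, beside 12.2% of all genes. In 2 of them SM20 was higher (6.54% of all genes) and in 5 lower (5.67%).

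The bounds on change were narrow. For 43 of the 58 genes, 74.1%, the 95% interval of the log2 fold change lay wholly within a 1.5-fold change either way, against 33.3% of all genes tested. The spread between lambs of a diet was also small: the median within-diet SD was 0.17 on the log2(CPM + 0.5) scale, against 0.27 over all genes. In the other splicing lists given below, the share within 1.5-fold ran from 22.2% (minor spliceosome factors) to 73.3% (snRNP assembly). Their median within-diet SD ran from 0.15 (exon junction complex) to 0.25 (minor spliceosome factors). The part of count level in these shares was not tested. Among the 58 genes the widest interval bounds were -0.98 for *LSM7* and 0.76 for *HNRNPDL*. The 15 genes whose interval reached past 1.5-fold included *SNRPD2*, *SNRPG*, *SF3B5*, *PRPF4B*, *PRPF39*, *SRSF1* and *SRSF10*.

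**Figure D1:**
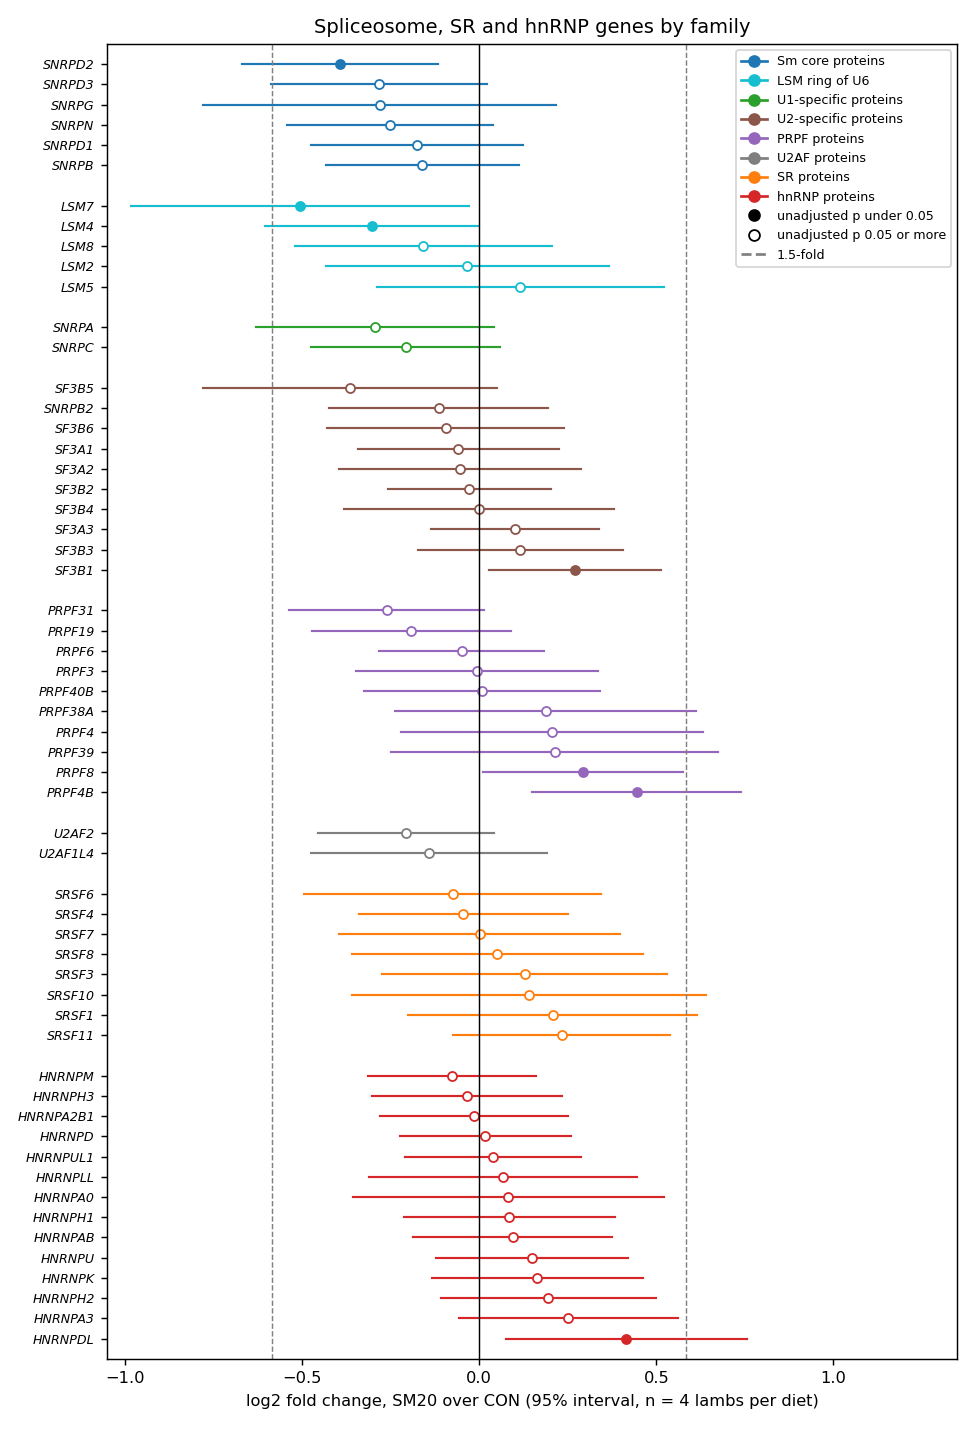
The log2 fold change of SM20 over CON (x axis) of 57 of the 58 genes (y axis), grouped by family. Points are estimates with their 95% intervals (n = 4 lambs per diet), filled where the unadjusted p was under 0.05; dashed lines mark a 1.5-fold change. The 6 Sm genes all lie left of 0, 11 of 14 hnRNP genes lie right of it, and 43 of the 57 intervals stay between the dashed lines.

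All 6 Sm core genes had a log2 fold change below 0, with a median of -0.27, where 49.3% of all genes tested were below 0 and their median was 0.01. The Sm proteins form the heteromeric ring shared by the major snRNPs. *SNRPD2*, which encodes SmD2, had 40.1, 34.9, 30.6 and 34.9 CPM in CON lambs 1 to 4 and 29.1, 25.4, 27.4 and 25.1 CPM in SM20 lambs 1 to 4. Every SM20 lamb lay below every CON lamb. The difference was -0.39 ± 0.13 (SE), with an adjusted p of 0.148 by edgeR, so it was not past the threshold; unadjusted, its p stayed under 0.05 in all 8 fits that left out 1 lamb.

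*SNRPD3*, which encodes SmD3, had 62.5, 49.6, 47.7 and 45.5 CPM in CON and 43.1, 48.0, 40.7 and 36.9 CPM in SM20. The diets overlapped through SM20 lamb 2, and CON lamb 1 stood highest. Its log2 fold change was -0.28 ± 0.14 (SE) and became -0.17 without CON lamb 1. *SNRPN*, the imprinted gene of the Sm protein SmN, had 49.8, 55.2, 42.3 and 41.3 CPM in CON and 36.6, 37.4, 43.2 and 41.2 CPM in SM20 (-0.25 ± 0.13 on the log2 scale). Its relative *SNRPB*, which encodes SmB, had 60.9, 59.5, 70.8 and 56.7 CPM in CON and 60.9, 49.3, 58.8 and 52.8 CPM in SM20 (-0.16 ± 0.12). Both overlapped between the diets. *SNRPD1* had -0.18 ± 0.14 and *SNRPG*, at 4.32 to 9.79 CPM, had -0.28 ± 0.23.

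Summed over the 6 genes, the Sm level was 209.3 to 244.5 CPM in CON and 181.4 to 200.4 CPM in SM20. Another group of messages lay on the same side: 50 of 51 cytosolic ribosomal protein genes, gathered by symbol once the values were known, lay below 0, with a median log2 fold change of -0.29 and summed levels of 11756 to 16114 CPM in CON and 10323 to 11656 CPM in SM20. CON lamb 1 had the highest sum of both. The part of that shift in the Sm values was not tested. Without CON lamb 1 the Sm median was -0.20.

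The LSM ring of U6 gave a less uniform picture, with 4 of 5 genes below 0 and a median of -0.16. That median was -0.06 without SM20 lamb 1 and -0.26 without SM20 lamb 4, and -0.21 to -0.12 without any other 1 lamb. *LSM7* had 16.5, 10.7, 10.3 and 9.59 CPM in CON and 10.3, 7.23, 7.01 and 8.45 CPM in SM20. Its highest value, in CON lamb 1, stood clear of the rest, and SM20 lamb 1 lay within the CON range. The log2 fold change was -0.51 ± 0.22 (SE), adjusted p = 0.248 by edgeR, and was -0.30 without CON lamb 1. *LSM4* had 22.1, 23.1, 26.0 and 25.7 CPM in CON and 17.5, 21.4, 21.8 and 17.9 CPM in SM20. Those values did not overlap, although SM20 lamb 3 and CON lamb 1 differed by little (-0.30 ± 0.14, adjusted p = 0.270 by edgeR).

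*LSM8*, the subunit that sets the nuclear ring apart from the LSM1-containing ring of cytoplasmic decay, had 21.1, 23.3, 23.5 and 19.7 CPM in CON and 15.4, 18.2, 19.9 and 25.0 CPM in SM20 (-0.16 ± 0.16 SE). SM20 lambs included both the lowest and the highest value. *LSM2* (-0.03 ± 0.18) and *LSM5* (0.12 ± 0.18) differed between the diets by less than their SE.

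Both U1-specific genes were below 0. *SNRPA*, which encodes the A protein of U1, which binds a stem-loop of the U1 RNA, had 15.5, 14.6, 18.0 and 16.0 CPM in CON and 10.6, 13.3, 14.6 and 13.8 CPM in SM20. SM20 lamb 3 reached almost to CON lamb 2, without overlap of the diets. *SNRPC*, which encodes the C protein of U1 that steadies U1 on the 5′ splice site, had 55.4, 52.0, 51.5 and 51.9 CPM in CON and 43.7, 40.0, 45.0 and 53.8 CPM in SM20, with SM20 lamb 4 inside the CON range. Their log2 fold changes were -0.29 ± 0.15 and -0.21 ± 0.12 (SE), with adjusted p-values of 0.330 and 0.383 by edgeR.

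In the U2 snRNP, 7 of 10 genes were below 0 with a median of -0.04, and the gene of the branch-point subunit stood on the other side. The median was -0.10, -0.06, -0.02 and 0.01 without CON lamb 1, 2, 3 and 4 in turn, -0.01 without SM20 lamb 1, and -0.05 to -0.04 without any other 1 lamb. *SF3B1*, which clamps the branch-point helix, had 201.9, 203.8, 195.1 and 176.6 CPM in CON and 252.4, 219.6, 236.0 and 230.05 CPM in SM20. All SM20 lambs lay above all CON lambs. The difference was 0.27 ± 0.11 (SE), or 1.21-fold, with an adjusted p of 0.230 by edgeR. Summed over the 10 genes, *SF3B1* included, the U2 level was 596.3 to 643.9 CPM in CON and 645.5 to 674.9 CPM in SM20. That sum was thus higher in SM20 without overlap, unlike the median. *SF3B1* was the most counted of the 10 genes and did not overlap itself. The sum therefore cannot be read as a result apart from that gene.

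*SF3B5*, a small subunit of the same complex, had 23.8, 29.9, 24.7 and 22.4 CPM in CON and 15.8, 24.2, 14.9 and 23.4 CPM in SM20. SM20 lambs 1 and 3 were low and the other two lay within the CON range (-0.36 ± 0.19). *SF3A3* of the SF3A complex had 65.2, 63.0, 63.6 and 70.1 CPM in CON and 66.9, 70.4, 67.3 and 76.2 CPM in SM20 (0.10 ± 0.11 SE), and the diets overlapped. The other SF3 genes and *SNRPB2*, which encodes the U2B″ protein, ran from -0.11 to 0.12. *SF3B2* was among the steadiest, at 75.2 to 84.9 CPM over the 8 lambs.

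Of 11 PRPF genes, 7 were above 0, with a median of 0.19. *PRPF4B*, the kinase that phosphorylates proteins of the tri-snRNP, had 35.9, 44.6, 49.8 and 44.2 CPM in CON and 57.7, 54.8, 68.2 and 56.9 CPM in SM20. The diets did not overlap. Its difference of 0.44 ± 0.13 (SE), 1.36-fold, had the smallest adjusted p among the 58 genes, at 0.134 by edgeR and 0.0542 by DESeq2. Leaving out 1 lamb at a time gave 0.36 to 0.51.

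*PRPF8*, the scaffold around the catalytic centre in U5, had 173.8, 161.8, 216.1 and 190.7 CPM in CON and 225.0, 248.5, 232.3 and 203.6 CPM in SM20. CON lamb 3 reached into the SM20 range. The log2 fold change was 0.29 ± 0.13 (SE), adjusted p = 0.256 by edgeR. *PRPF31*, which joins U4/U6 to U5, went the other way (-0.26 ± 0.13, adjusted p = 0.297), with 23.8, 26.2, 28.3 and 24.6 CPM in CON and 23.4, 21.8, 21.0 and 19.7 CPM in SM20 and no overlap. The ubiquitin ligase gene *PRPF19* had -0.19 ± 0.13. Among the U1-associated factors *PRPF39* had 0.21 ± 0.21 and *PRPF40B* 0.01 ± 0.15.

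CON lamb 1 had the lowest value of 5 of the 11 PRPF genes, where it had the lowest value of 20.0% of all genes. The PRPF median was 0.12 without CON lamb 1, 2 or 3, 0.08 without CON lamb 4, 0.09 without SM20 lamb 3, and 0.17 to 0.20 without any other 1 lamb. With slow-fibre markers as a covariate it was 0.02. The summed PRPF level was 446.9 to 529.8 CPM in CON and 520.1 to 570.9 CPM in SM20, with the lowest sum in CON lamb 1.

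Both U2AF genes were below 0 by less than 1.5-fold, and the whole of each 95% interval lay inside that bound. *U2AF2*, the large subunit that reads the polypyrimidine tract, had 65.1, 66.4, 71.5 and 72.6 CPM in CON and 63.7, 59.9, 62.3 and 52.8 CPM in SM20. SM20 lamb 1 came close to CON lamb 1 without overlap (-0.21 ± 0.11 SE, adjusted p = 0.352 by edgeR). *U2AF1L4*, a relative of the small subunit, had 14.3, 12.01, 13.7 and 13.0 CPM in CON and 13.2, 11.9, 9.96 and 12.9 CPM in SM20 (-0.14 ± 0.15), and the diets overlapped.

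**Figure D2:**
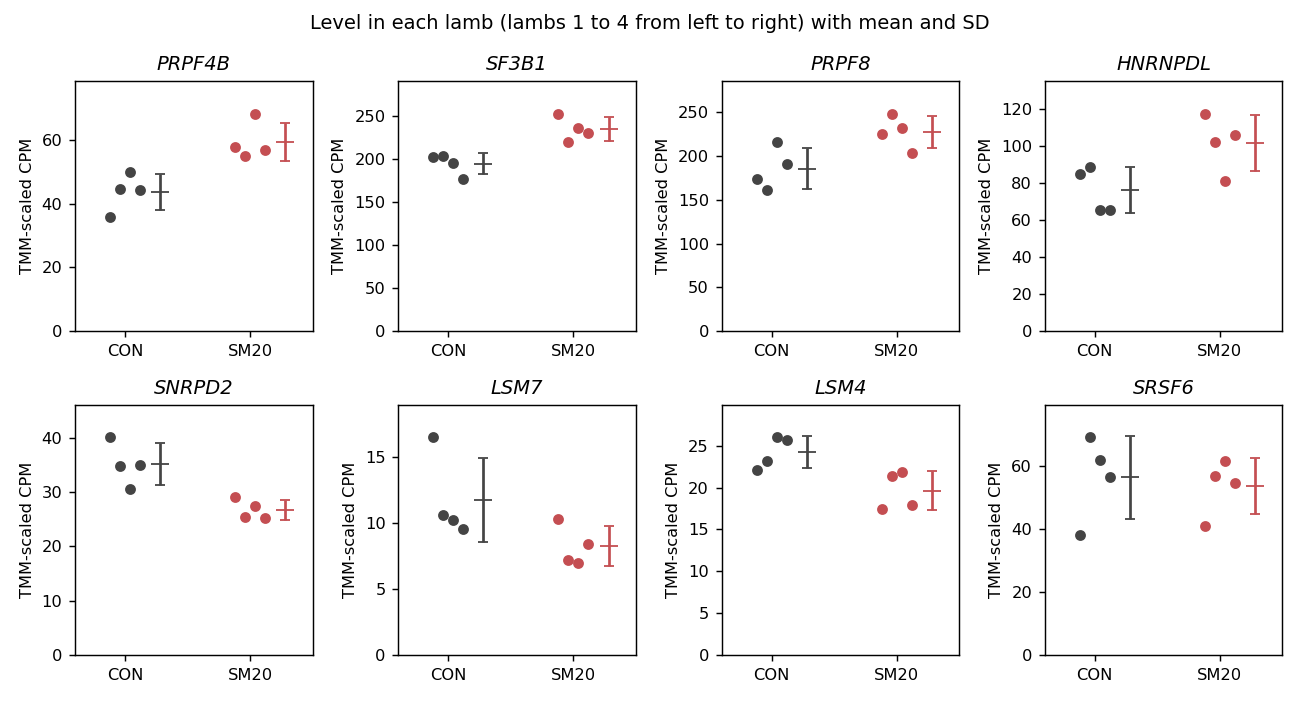
TMM-scaled CPM (y axis, from 0) of 8 genes in the CON and SM20 lambs. Points are lambs 1 to 4 from left to right and the bars beside them are mean ± SD (n = 4). *PRPF4B*, *SF3B1*, *SNRPD2* and *LSM4* do not overlap between the diets, whereas *SRSF6* spans 38.04 to 69.1 CPM within CON alone.

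None of the 8 SR genes had an unadjusted p under 0.05 by edgeR or non-overlapping diets. Their median log2 fold change was 0.09, which became -0.00 without CON lamb 1, -0.05 without SM20 lamb 3 and -0.04 with slow-fibre markers as a covariate. Leaving out lamb 4 of either diet gave 0.04, whereas leaving out CON lamb 2 gave 0.15 and SM20 lamb 1 gave 0.17. *SRSF11* had 30.3, 40.2, 38.1 and 45.7 CPM in CON and 45.2, 41.8, 45.1 and 49.2 CPM in SM20. CON lamb 4 was as high as most SM20 lambs (0.23 ± 0.14 SE, adjusted p = 0.395 by edgeR). *SRSF1*, a founding SR protein that also shuttles to the cytoplasm, had 30.0, 37.5, 39.7 and 37.1 CPM in CON and 34.2, 33.0, 58.0 and 41.5 CPM in SM20. The high SM20 mean rested on lamb 3, and the log2 fold change of 0.21 ± 0.19 became 0.01 without it.

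*SRSF3*, the smallest SR protein, had 53.2, 68.5, 51.9 and 43.3 CPM in CON and 44.1, 54.3, 71.7 and 67.0 CPM in SM20, so that each diet held low and high lambs (0.13 ± 0.18 SE). Its near relative *SRSF7* had a log2 fold change of 0.00 ± 0.18. *SRSF10* had 0.14 ± 0.23, *SRSF8* 0.05 ± 0.19, *SRSF4* -0.04 ± 0.13 and *SRSF6* -0.08 ± 0.19.

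Between lambs of the same diet, the SR genes varied near the level of all genes and more than the hnRNP or Sm genes. The SR median within-diet SD was 0.29 on the log2(CPM + 0.5) scale, against 0.27 for all genes. It was 0.14 for hnRNP and 0.15 for Sm genes. The largest difference between the diets among the SR genes was 0.23. *SRSF6*, chosen after its values were seen, had 38.04, 69.1, 62.01 and 56.4 CPM in CON and 41.0, 56.9, 61.8 and 54.7 CPM in SM20. CON lamb 1 and SM20 lamb 1 were low and the other lambs of both diets shared a range. CON lamb 1 had the lowest value of 5 of the 8 SR genes, and SM20 lamb 3 the highest value of 5, where these lambs held the lowest of 20.0% and the highest of 10.8% of all genes. The median deviation of the SR genes from their mean over the 8 lambs was -0.35, 0.19, 0.06 and 0.01 (log2) in CON lambs 1 to 4 and -0.24, 0.03, 0.24 and 0.07 in SM20 lambs 1 to 4. The lowest SR medians were those of CON lamb 1 and SM20 lamb 1. These lambs also had the highest summed slow-fibre markers within their diets, at 26291 and 16126 CPM. CON lamb 2, with the next highest sum in CON (18316 CPM), had instead the highest SR median in CON, 0.19. Of the 9 slow-fibre markers 8 were tested, and all 8 had a log2 fold change below 0, with overlapping sums (10931 to 26291 CPM in CON, 11316 to 16126 CPM in SM20). With the slow-fibre markers as a covariate the SR median log2 fold change was -0.04 rather than 0.09. Their part in the SR spread between lambs was not tested.

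**Figure D3:**
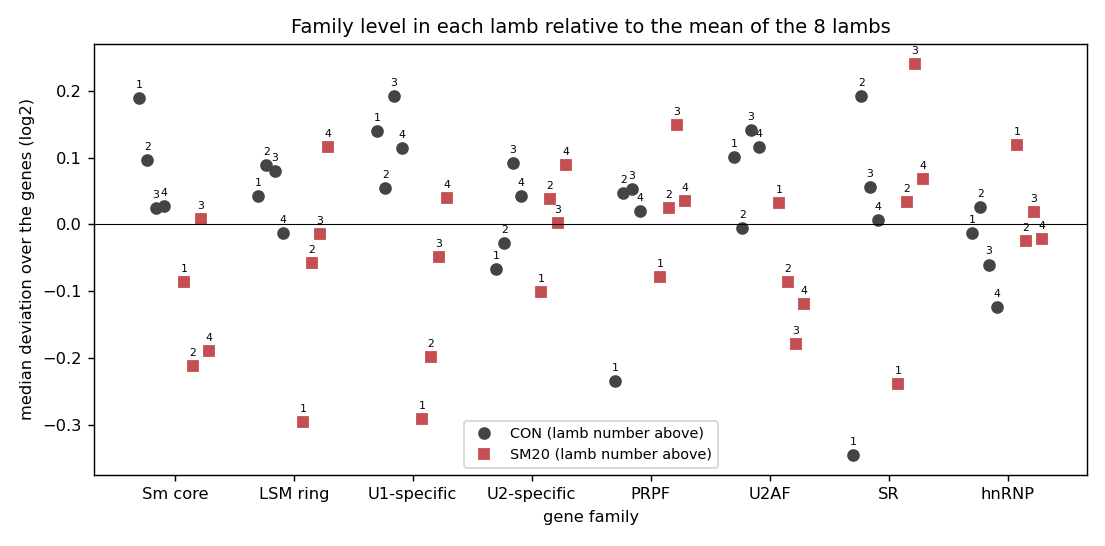
Median deviation of each family's genes from their mean over the 8 lambs (y axis, log2(CPM + 0.5)) by family (x axis); circles are CON lambs, squares SM20 lambs, with the lamb number above. The Sm medians of SM20 lie below those of CON, and the SR medians run from -0.35 in CON lamb 1 to 0.24 in SM20 lamb 3 with the diets intermixed.

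Among the hnRNP genes 11 of 14 were above 0, where 50.7% of all genes were, with a median of 0.08 and 0 of 14 with non-overlapping diets. The median was 0.03 without SM20 lamb 3 and 0.06 to 0.11 without any other 1 lamb. *HNRNPDL*, a relative of the AU-rich element binding protein HNRNPD, had 84.9, 88.8, 65.6 and 65.5 CPM in CON and 117.5, 102.0, 81.1 and 105.7 CPM in SM20. SM20 lamb 3 lay within the CON range and the other SM20 lambs above it. The difference was 0.42 ± 0.16 (SE), 1.33-fold, with an adjusted p of 0.192 by edgeR. *HNRNPD* itself had 0.02 ± 0.11.

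*HNRNPA3* had 52.1, 54.8, 48.4 and 48.3 CPM in CON and 76.5, 52.0, 59.1 and 54.7 CPM in SM20. Its difference of 0.25 ± 0.14 (SE) became 0.12 without SM20 lamb 1. *HNRNPH2*, which binds runs of G, had 52.9, 42.5, 55.3 and 41.6 CPM in CON and 58.3, 49.5, 50.9 and 61.4 CPM in SM20 (0.19 ± 0.14). Both genes overlapped between the diets.

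*HNRNPA2B1*, a core hnRNP that also sorts RNA in the cytoplasm, took the most reads of the 58 genes. It had 913.0, 996.4, 906.2 and 794.1 CPM in CON and 816.0, 903.3, 913.2 and 941.4 CPM in SM20. The difference was -0.01 ± 0.12 (SE), with a 95% interval of -0.28 to 0.25. Its sign changed with library size alone as the scaling (0.04). *HNRNPU*, a nuclear matrix protein, had 0.15 ± 0.12, *HNRNPK*, which binds C-rich RNA, 0.16 ± 0.14, and *HNRNPM* -0.08 ± 0.11. For 13 of the 14 genes the interval lay within 1.5-fold. CON lamb 4 had the lowest value of 7 of the 14 hnRNP genes, where it had the lowest of 12.8% of all genes.

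Ratios of related genes within a lamb do not depend on how libraries are scaled. Of 10 such pairs, chosen after the data were seen, none had ratios that did not overlap between the diets. The log2 ratio of *HNRNPDL* to *HNRNPD* was -0.48 ± 0.24 in CON and -0.08 ± 0.25 in SM20 (SD, n = 4; exact two-sided permutation p = 0.0571, adjusted p = 0.429 over the 10 pairs, the smallest p possible being 0.0286). *HNRNPA3* to *HNRNPA2B1* differed by 0.25 (exact permutation p = 0.143) and *SRSF6* to *SRSF4* by -0.01 (exact permutation p = 0.971). For *SNRPN* to *SNRPB* the difference was -0.08 (exact permutation p = 0.657). Adjusted over the 10 pairs, p ran from 0.429 to 0.971.

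**Figure D4:**
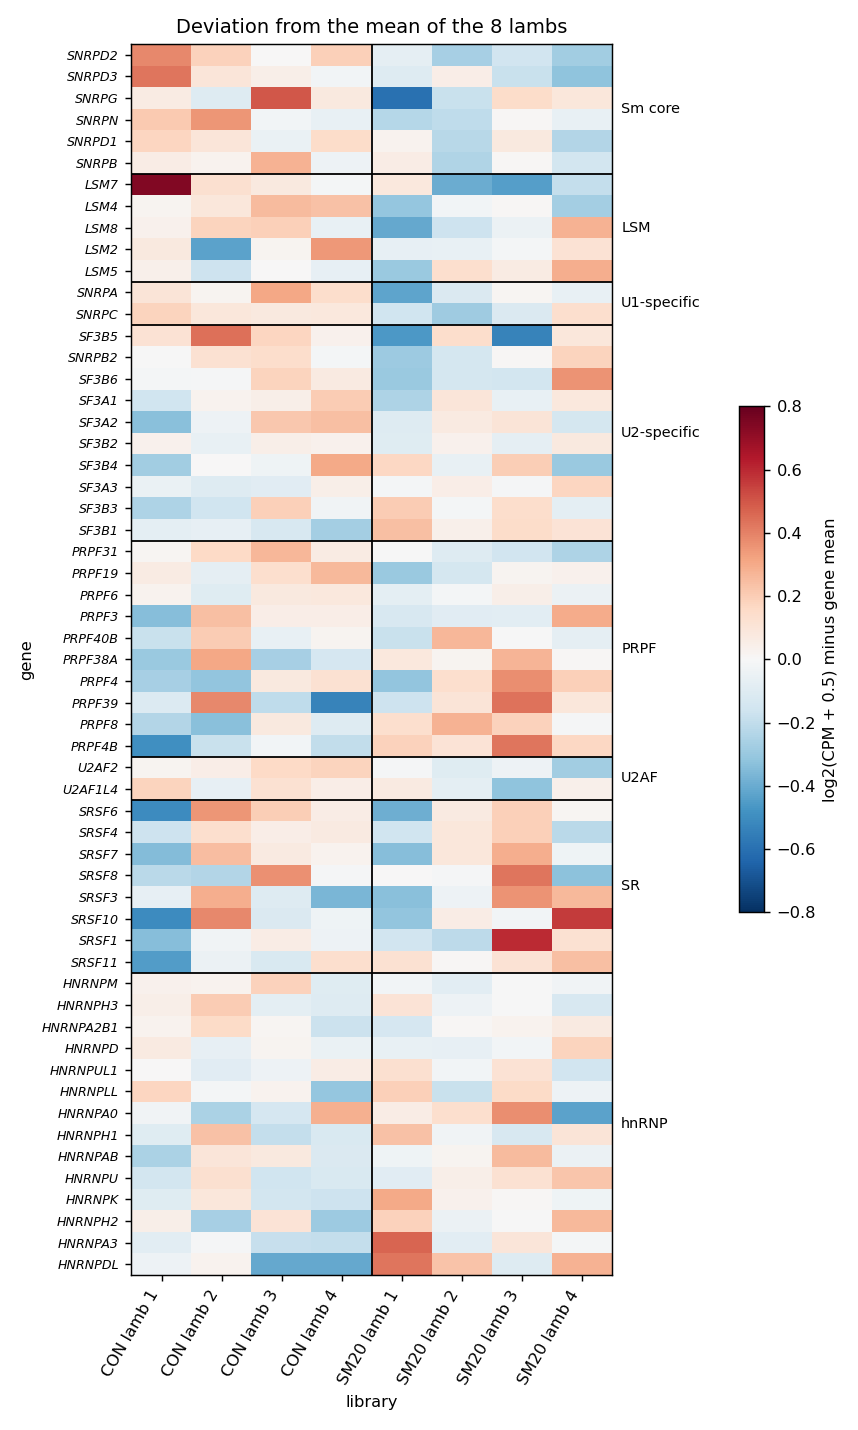
Deviation of each of 57 genes from its mean over the 8 lambs (colour, log2(CPM + 0.5)), with genes as rows by family and libraries as columns. Reds in CON and blues in SM20 recur among the Sm and U1 genes, and the SR block shows CON lamb 1 low and SM20 lamb 3 high rather than a split by diet.

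The families' medians thus ran from -0.27 (Sm) through -0.25 (U1), -0.17 (U2AF), -0.16 (LSM), -0.04 (U2), 0.08 (hnRNP) and 0.09 (SR) to 0.19 (PRPF). Whether the families differ from each other was not tested, since genes of a family share lambs and are not replicates. Under the other scalings every one of these medians kept its sign except U2, which was 0.00 with library size alone.

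The 7 SNRNP genes that the choice of symbols leaves out also included 0 past the threshold by edgeR or DESeq2, with a median of -0.30 and 3 genes, all lower, at an unadjusted p under 0.05 (42.9%, beside 8.45% of all genes lower). *SNRNP25* and *SNRNP35*, components of the minor U11/U12 snRNP, had 59.8 ± 6.65 CPM under CON and 47.4 ± 1.46 CPM under SM20, and 9.37 ± 1.52 and 7.10 ± 0.53 CPM (SD, n = 4 per diet). Their log2 fold changes were -0.33 ± 0.12 and -0.40 ± 0.17 (SE), with adjusted p-values of 0.173 and 0.253 by edgeR. Their diets did not overlap (2 of the 7 genes, 28.6%, beside 5.67% of all genes lower without overlap). *SNRNP70*, which encodes the U1-70K protein, had -0.30 ± 0.12, alongside *SNRPA* and *SNRPC* of the same particle. *SNRNP48* of U11/U12 had -0.31 ± 0.18, and *SNRNP200*, the helicase that unwinds U4 from U6, 0.15 ± 0.11.

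The other splicing lists held 0 genes past the threshold by edgeR as well. Of the SR-related coactivators and SR kinases 21 of 25 were tested, with a median of 0.10 and 4 genes at an unadjusted p under 0.05, all higher. That share was 19.0%, beside 9.84% of all genes that were higher and 18.3% in either direction. *DYRK1A*, a kinase that phosphorylates SR proteins, had 48.6 ± 3.67 CPM in CON and 73.4 ± 9.58 CPM in SM20 (0.59 ± 0.13 SE, adjusted p = 0.0873 by edgeR and 0.00487 by DESeq2). *SCAF11* had 0.51 ± 0.13 and *SON*, a scaffold of nuclear speckles, 0.34 ± 0.13. Among the 41 of 43 tested factors of the Prp19 complex, helicases and late steps, the median was 0.08 and 3 genes, all higher, had an unadjusted p under 0.05 (7.32%, below the 9.84% of all genes that were higher). *SLU7*, which acts at the 3′ splice site in the second step, had 0.53 ± 0.13, the helicase *DDX46* 0.42 ± 0.11 and *SMNDC1* 0.42 ± 0.17. DESeq2 placed *DYRK1A*, *SCAF11*, *SLU7* and *DDX46* past an adjusted p of 0.05, as it did 6.28% of all genes it gave one.

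Of the muscle and tissue splicing regulators, 26 of 35 were tested, with a median of 0.13 and 5 higher and 2 lower at an unadjusted p under 0.05. Together these were 26.9% of the list, beside 18.3% of all genes (9.84% higher and 8.45% lower). *QKI*, which regulates exon use in muscle, had 272.3 ± 31.9 CPM in CON and 384.1 ± 30.0 CPM in SM20 (0.50 ± 0.13 SE, adjusted p = 0.107 by edgeR and 0.0110 by DESeq2). *MBNL1*, the regulator sequestered in myotonic dystrophy, had 181.0 ± 30.0 and 261.8 ± 48.3 CPM (0.53 ± 0.16, adjusted p = 0.135 by edgeR). *KHDRBS3* was lower at 1.70 ± 0.41 and 0.81 ± 0.36 CPM, a level that rests on few reads. The list for snRNP assembly had 15 of 21 genes tested, a median of 0.03 and 0 at an unadjusted p under 0.05, with *GEMIN8* of the SMN complex at -0.47 ± 0.22, *DDX20* at 0.28 ± 0.16 and *PHAX* at 0.23 ± 0.14. The exon junction complex list also held the UPF factors of messenger RNA decay and *PYM1*, so its values are not those of the complex alone. It had 7 of 10 tested, a median of 0.03 and 1 gene (14.3%) at an unadjusted p under 0.05. *CASC3* had 0.43 ± 0.19, *UPF2* 0.21 ± 0.14 and *RBM8A* -0.13 ± 0.12. The remaining minor spliceosome factors had 9 of 11 tested, a median of 0.06 and 1 gene (11.1%) at an unadjusted p under 0.05, with *SCNM1* at -0.40 ± 0.16, *PDCD7* at 0.30 ± 0.20 and *RBM48* at 0.25 ± 0.17.

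Read assignment limits some of these values. In the RefSeq annotation of ARS-UI_Ramb_v3.0, 57 of the 58 symbols were found, and 13 of those genes overlapped another annotated gene, among them *SNRPN* with *SNURF*, *HNRNPDL* with *ENOPH1*, *LSM7* with *SPPL2B*, *SNRPA* with *MIA* and *SRSF1* with *VEZF1*. These overlaps are of whole gene spans, with exons and strand not examined. Where exons are shared, reads of such partners may not be told apart, since the strand setting of the counting is not known. Sm, LSM and hnRNP genes also have near-identical processed copies in mammalian genomes, among which reads can be split.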

How the data were processed

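Poly-A RNA libraries (RNeasy Mini, TruSeq Stranded mRNA, per the labels' protocols) of 8 lambs were analysed from the deposited table of whole-number read counts per gene symbol, to which the authors applied no normalization. Per the submitters' processing notes the tools were Trim Galore, cutadapt, STAR, featureCounts and DESeq2; versions, genome build, annotation and strand setting: not given in the sources used here. A deposited sample sheet gave the labels' diet for all 8 libraries. Replicate numbers follow accession order.

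Diets were compared with edgeR 4.0.16 (R 4.3.3): default expression filter with a minimum count of 10, TMM factors, quasi-likelihood F-test with diet as the only term, two-sided, Benjamini-Hochberg adjustment over 9779 genes. The SE is the log2 fold change divided by the root of F, and intervals use its t distribution. The filter left out 1468 genes (0.0735% of counts). The common coefficient of variation between lambs was 0.225 over all genes tested. How far read counts and the spread between lambs each set precision was not tested. DESeq2 1.42.0, 3 other scalings, no filter, a slow-fibre covariate and leaving out each lamb were tried. The test was tried on simulated data. Members and lists were chosen with earlier results of these data known. Genes named are the 3 with the smallest p in each family or list, the most counted of each family, and genes with non-overlapping diets and unadjusted p under 0.05. SRSF6 was chosen after its values were seen, and the remaining members are given by value. One of the 58 genes enters all counts, sums and medians, but its own values are not reported here. No sequences were used.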

Additional observations from a re-analysis of the deposited data

Results flagged for a closer look

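In 182 groups of 4 lambs examined (58 genes, the other named genes and the family medians, by diet), 9 held 1 lamb set far from the other 3, or 4.95%; chance alone flags about 1 in 20. CON lamb 1 stood high for LSM7, at 16.5 CPM against 9.59 to 10.7, and for SNRPC, at 55.4 CPM against 51.5 to 52.0. It stood low for the PRPF family, with a median deviation of -0.23 against 0.02 to 0.05. CON lamb 2 stood high for HNRNPU (252.7 CPM against 207.1 to 211.9) and low for SF3B2 (77.2 against 82.4 to 83.1). SM20 lamb 4 stood high for HNRNPD (119.2 CPM against 100.9 to 103.9) and for PRPF3 (49.7 against 36.8 to 38.01). SM20 lamb 3 stood low for SNRNP48 (11.9 CPM against 17.2 to 18.2), and SM20 lamb 1 for RBM8A (24.3 against 29.5 to 29.7).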

How the results depend on the processing

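None of the 58 genes passed the adjusted threshold in any of the 14 other fits. Over all genes the calls of 4 higher and 1 lower became 255 and 191 with DESeq2, 0 and 0 without the filter, with the slow-fibre covariate and on leaving out any 1 lamb (0 to 0), and 0 higher with RLE or upper-quartile scaling. Genes at an unadjusted p under 0.05 were 2 higher and 5 lower with upper-quartile scaling and 1 lower with library size alone, and 1 to 4 higher and 2 to 4 lower when 1 lamb was left out. The median of all 58 was 0.041 with library size alone and -0.053 with the slow-fibre covariate. That covariate also gave medians of -0.13 (snRNP), -0.17 (Sm), -0.12 (U2), 0.023 (PRPF) and -0.089 (minor spliceosome factors). Leaving out 1 lamb gave medians of -0.12 to -0.028 (snRNP), -0.31 to -0.19 (SNRNP), 0.0020 to 0.20 (SR-related), 0.023 to 0.15 (muscle regulators), -0.048 to 0.11 (minor spliceosome), 0.036 to 0.14 (Prp19 complex and late factors), -0.033 to 0.096 (snRNP assembly) and -0.0046 to 0.071 (exon junction complex). Of 47 named genes, 46 kept their sign throughout; HNRNPA2B1 turned positive with library size alone (0.039), with the covariate (0.0090), and within -0.077 to 0.027 on leaving out 1 lamb. The cause of these shifts was not tested. A correction for protein length was not run, as no lengths were at hand. No paired analysis was possible because the labels give no replicate numbers that the diets share.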
